A study of Mus musculus with 6 samples.

Results

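Heparan sulfate and chondroitin sulfate are built, modified and remodelled by enzymes of a few gene families, and their members were examined here in liver tumors and normal livers of male C3H/HeN mice, an inbred strain prone to spontaneous liver tumors. All animals were 74 weeks old. The liver tumor group held 3 samples, each a macroscopic tumor with a Ha-ras mutation, and the normal liver group held 3 samples. The animals came from the F2 control group of a gestational arsenic study, and no source used here says if any animal gave both tissues. The assay was reduced representation bisulfite sequencing (RRBS), a measure of DNA methylation in which DNA is cut with MspI at CCGG and bisulfite turns unmethylated cytosine into a base read as T. The authors' deposited table lists 14176 regions for 6741 nearest genes, each with 1 difference in mean CpG methylation, tumor minus normal, in percentage points. It holds no value per sample, so no spread between animals and no test could be computed, and every difference below is the authors' deposited value without an SD or n. Members were all regions listed under the gene symbols of the synthesis, sulfation, core protein and remodelling families, with no minimum on the difference, which gave 112 regions of 38 genes. The set was chosen by a rule proposed with the table's values known, including 3 gains of 30 points or more at Hs6st1, so the values below describe the members and are not independent support for a pattern. Every listed region differs by at least 20 points, has at least 3 CpG cytosines and has at least 1 differentially methylated cytosine (DMC). Of the 64 protein-coding genes that match the symbols, 26 had no listed region, among them Ext1, Glce, Gpc1 to Gpc4, Hs6st2 and Xylt2. A gene without a region may have held no measured site, so its absence says nothing on its methylation. In whole tissue, a change in the mix of cell types and a change within cells cannot be told apart, and with no level per group the labelled tissue could not be checked against markers.

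Heparan sulfate and chondroitin sulfate are sugar chains carried by core proteins at the cell surface and in the matrix. Both start from the same linkage sugars on the core protein, after which the chain is extended with alternating sugars and then sulfated at set positions by separate sulfotransferase families. The pattern of sulfate groups decides which growth factors, morphogens and coagulation proteins a heparan sulfate chain can bind, and in liver these chains also take part in the uptake of lipoprotein remnants. Endosulfatases and heparanase later trim the finished chains outside the cell. CpG methylation is a mark on cytosine that is often low at active promoters and enhancers and high over most other sequence.

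The members on which the description turns are shown first. Hs6st1 was the gene with the most gains, Hs6st3 is its paralog and had losses alone, and Sulf2 encodes an enzyme that removes the sulfate that both add. The sequences are from the reference genome GRCm38 (mm10) of C57BL/6J mice, written 5′ to 3′, with each CpG dinucleotide in capitals, and C3H/HeN mice may differ from them. The first region is longer than the stretch of 300 bases printed here, and a region can begin or end inside a CpG.
Hs6st1 chr1:36030356-36030655 (plus strand): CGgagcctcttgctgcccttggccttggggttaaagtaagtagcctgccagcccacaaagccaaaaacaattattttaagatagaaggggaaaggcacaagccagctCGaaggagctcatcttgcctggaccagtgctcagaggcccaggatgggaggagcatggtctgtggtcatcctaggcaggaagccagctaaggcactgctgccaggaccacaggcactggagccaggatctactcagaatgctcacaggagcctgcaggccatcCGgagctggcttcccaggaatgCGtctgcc
Hs6st1 chr1:36038889-36038972 (plus strand): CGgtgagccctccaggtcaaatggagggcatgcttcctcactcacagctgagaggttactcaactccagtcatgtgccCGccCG
Hs6st1 chr1:36089089-36089358 (plus strand): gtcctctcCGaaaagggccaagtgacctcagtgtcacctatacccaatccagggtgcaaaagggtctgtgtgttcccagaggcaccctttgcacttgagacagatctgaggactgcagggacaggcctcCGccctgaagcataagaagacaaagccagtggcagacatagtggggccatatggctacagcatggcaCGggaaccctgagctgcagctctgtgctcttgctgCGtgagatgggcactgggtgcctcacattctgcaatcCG
Hs6st3 chr14:119278651-119278894 (plus strand): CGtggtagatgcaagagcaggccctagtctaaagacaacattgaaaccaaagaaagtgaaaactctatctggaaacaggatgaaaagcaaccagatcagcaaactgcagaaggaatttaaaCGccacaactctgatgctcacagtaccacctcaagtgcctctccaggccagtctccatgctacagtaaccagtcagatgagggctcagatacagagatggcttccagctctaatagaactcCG
Hs6st3 chr14:119404567-119404737 (plus strand): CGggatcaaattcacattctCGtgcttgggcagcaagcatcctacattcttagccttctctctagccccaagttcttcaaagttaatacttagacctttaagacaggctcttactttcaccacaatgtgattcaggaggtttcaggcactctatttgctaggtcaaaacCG
Sulf2 chr2:166098237-166098347 (plus strand): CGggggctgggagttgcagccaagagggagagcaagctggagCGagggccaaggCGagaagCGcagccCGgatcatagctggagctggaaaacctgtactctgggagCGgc
The region of Hs6st1 at chr1:36030356-36030701 had 11 measured CpG cytosines, of which 10 were DMCs. Cytosines of both strands were counted apart, so the 84 bases of the second Hs6st1 region held 3 CpG dinucleotides and 4 measured cytosines, all DMCs.

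The largest loss of all members lay in a repeat, and 2 other members share a stretch of its sequence. This region was listed under Hs3st1, lay in intergenic sequence 999.8 kb upstream of its transcription start site (TSS), and fell by 52.7 points with all 7 of its 7 cytosines DMCs. In the lines that follow, capitals mark the longest runs of letters that it has in common with a region of Ndst4 and with a region of B3gat1, both of which are repeat-masked over 100% of their bases. For Hs3st1 the masked share was 79.3%.
Hs3st1 chr5:40644442-40644533 (plus strand): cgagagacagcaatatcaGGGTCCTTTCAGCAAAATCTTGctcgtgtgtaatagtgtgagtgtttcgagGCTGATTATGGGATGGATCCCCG
Ndst4 chr3:125374757-125374863 (plus strand): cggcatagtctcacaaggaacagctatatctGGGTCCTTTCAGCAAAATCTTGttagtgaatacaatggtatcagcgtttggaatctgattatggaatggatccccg
B3gat1 chr9:26292211-26292265 (minus strand): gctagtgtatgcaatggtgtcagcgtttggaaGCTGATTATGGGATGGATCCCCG
The run shared with Ndst4, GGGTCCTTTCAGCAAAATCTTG, has 22 letters. It occurred on either strand in 193 of the 14176 regions (1.36%), and all 193 were losses, with a median of -27.5 points. The run shared with B3gat1, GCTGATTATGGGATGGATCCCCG, has 23 letters and occurred in 177 regions (1.25%), again all losses. The 2 runs do not overlap, and 61 regions held both. Of the 3867 regions of the table that were repeat-masked over at least 50% of their bases, 97.1% were losses and the median difference was -25.2 points. Over all listed regions these values were 85.1% and -23.9 points. Both runs were picked after the values were seen. The authors kept only reads with a unique best hit.

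Most member regions were hypomethylated in the tumors. Of the 112, 97 were losses and 15 were gains, so that 86.6% were losses (exact Clopper-Pearson 95% interval 78.9 to 92.3%, covering the counting of regions alone), beside 85.1% of the whole table. The median difference was -23.3 points, and it was -23.9 points in the whole table. A difference of 30 points or more, the study's threshold for a differentially methylated region (DMR), was reached by 22 members, or 19.6% (interval 12.7 to 28.2%), beside 23.5% of all regions. Both intervals take the regions as independent, although 27 of the 38 genes had 2 or more regions, so they may be too narrow. Of these DMRs, 17 were losses and 5 were gains. Losses of this size made up 15.2% of the members, beside 18.0% of all regions, and gains 4.46%, beside 5.57%. The members were therefore near the background of the table in direction and size, and the description turns on which genes carried the gains and the larger losses. The smallest losses inside the DMR threshold were -30.1 points at Hs3st4, -30.3 points at Ndst3 and -30.4 points at Sdc3. Just outside it lay -29.7 points at B3gat1, -29.4 points at Hs3st5 and -29.3 points at Sulf1.

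**Figure D1:**
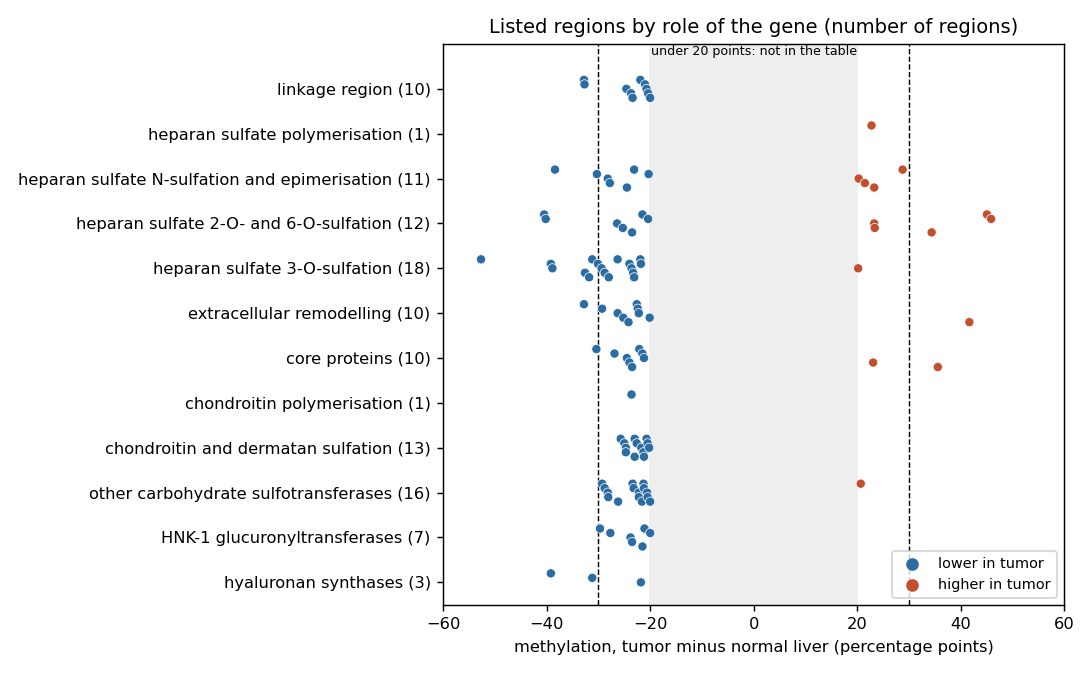
Each point is 1 listed region, placed by its methylation difference, tumor minus normal liver, in percentage points (x axis) and by the role of its gene (y axis, number of regions in brackets). Dashed lines mark 30 points and the grey band holds differences under 20 points, which the table does not list. Gains of 30 points or more, at the right, are found for 6-O-sulfation (3 regions), extracellular remodelling (1) and core proteins (1).

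The sulfotransferases that act on positions 2-O and 6-O of heparan sulfate had 12 regions. Of these, 7 were losses and 5 were gains (58.3% losses, beside 85.1% of the table). At Hs6st1 lay 4 of the 5 gains, and the rule was proposed with gains there known. The count of gains for this role is therefore not independent of the choice of members. Hs6st1, which adds sulfate to the 6-O position of glucosamine, had 4 listed regions on chromosome 1, and all 4 were hypermethylated. In intergenic sequence 37.7 kb upstream of its TSS the gain was 45.9 points, in a region that overlapped a CpG island by sequence. With 500 bp on each side, the observed to expected CpG ratio of this region was 0.324, under the 0.6 set for an island. A gain of 45.1 points lay 29.4 kb upstream, also intergenic, with all 4 cytosines DMCs. Within intron 1 of its 2-exon transcript the gains were 23.4 points at 19.3 kb (1:36087667-36087883) and 34.4 points at 20.7 kb from the TSS (1:36089089-36089358). The 4 regions spanned 59.0 kb, and 19 of their 24 measured cytosines were DMCs (79.2%), beside 48.8% over all members and 53.5% over the whole table. The share was 78.9% at Hs3st1 and 83.3% at Hs3st3a1, and at most 64.3% at every other member gene. A DMC must itself pass a minimum difference, so a high share goes with large differences and is not a separate trait. Hs6st3, a paralog that catalyses the same step, had 7 regions on chromosome 14, all of them losses inside intron 1. They lay 31.2 to 266.3 kb downstream of the TSS and their differences ran from -40.5 to -20.4 points, with a median of -25.3 points. The larger losses, -40.5 points at 140.4 kb and -40.2 points at 266.3 kb, had 3 of 3 and 4 of 4 cytosines called DMCs. Those with the most cytosines, 12 at 138.2 kb and 10 at 79.7 kb, were smaller, at -20.4 and -21.5 points. The gains of Hs6st1 were among the values that chose the members, and its contrast with Hs6st3 is a description. Hs2st1, the 2-O-sulfotransferase of uronic acid, had 1 region, a gain of 23.3 points in intron 1 with 6 of 12 cytosines called DMCs.

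The N-deacetylase/N-sulfotransferases, which start the modification of the heparan sulfate chain, had 7 losses and 4 gains (63.6% losses, beside 85.1% of the table). The gains were listed under Ndst1, which had both directions, and under Ndst2, whose regions lay in another gene. Ndst1 and Ndst2, the members of the family found in most tissues, had 4 gains and 1 loss. At Ndst1 on chromosome 18 the values were 23.3, -27.8 and 28.8 points, all in intron 1 of a longer transcript and 5.4 to 22.1 kb upstream of the listed TSS. The loss lay between the gains, 7052 bp from the nearer of them, and had 3 of 3 cytosines called DMCs. Both gains of Ndst2, 20.3 and 21.5 points, lay in coding exons of the neighbouring gene Camk2g, a calcium/calmodulin-dependent kinase, and overlapped CpG islands by sequence. The second had 11 cytosines. Ndst3 and Ndst4 both lie on chromosome 3 and had 3 regions each, all intergenic losses upstream of the TSS. The values were -24.5, -30.3 and -28.2 points for Ndst3 and -20.3, -23.1 and -38.4 points for Ndst4. All 3 regions of Ndst4 were fully repeat-masked, and the one of -23.1 points held 18 cytosines. Repeat masking covered 0.0, 38.5 and 100% of the bases of the 3 Ndst3 regions, in the same order.

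**Figure D2:**
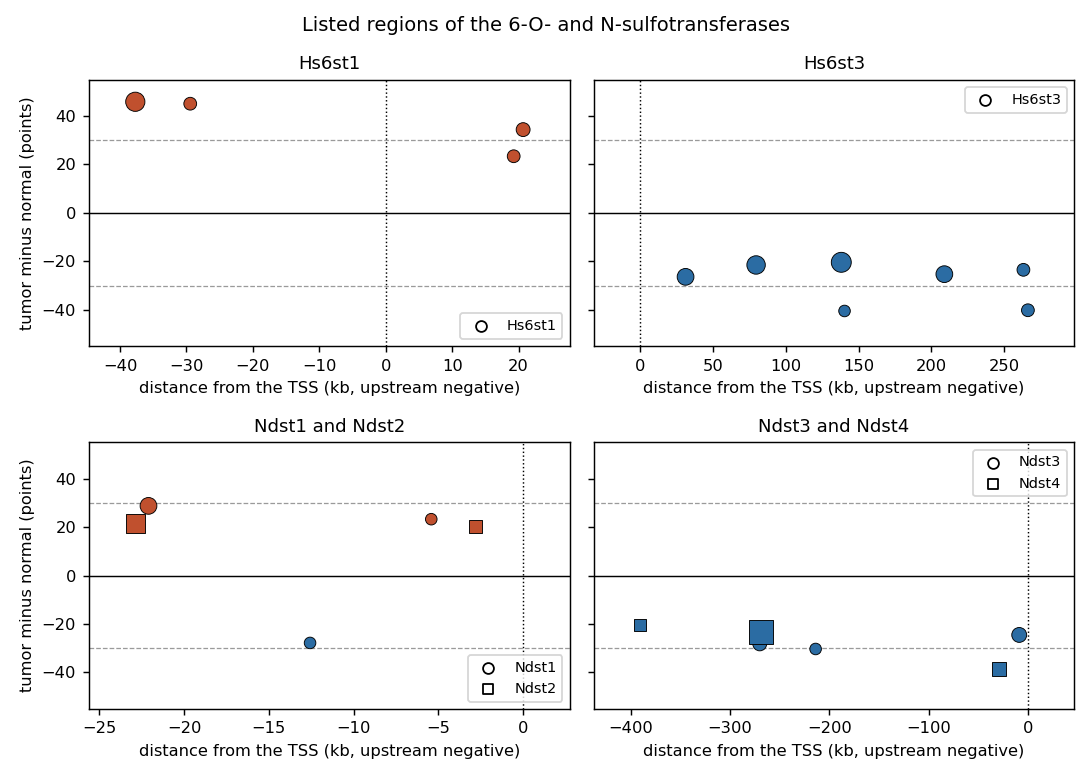
Each symbol is 1 listed region, placed by its distance from the listed TSS in kb along the gene (x axis, upstream negative, with its own range in each panel) and by its methylation difference, tumor minus normal, in percentage points (y axis). The area grows with the number of CpG cytosines, dashed lines mark 30 points, and red is a gain and blue a loss. The 4 regions of Hs6st1 are above 0 and the 7 of Hs6st3 below it, and Ndst1 holds both directions.

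The 3-O-sulfotransferases, which add the rarest sulfate group of heparan sulfate, had 18 regions, of which 17 were losses (94.4%, beside 85.1% of the table). Of the 18, 7 were DMRs (38.9%, beside 23.5%), and the median was -28.4 points. The share of DMRs was higher for 2-O- and 6-O-sulfation, with 5 of 12 regions, and for the hyaluronan synthases, with 2 of 3. Hs3st1, whose product makes the site that binds antithrombin, had 4 intergenic losses upstream of its TSS on chromosome 5. Besides the loss in the repeat, these were -38.9 points at 315.0 kb, -32.6 points at 27.3 kb and -28.0 points at 407.8 kb, the first 2 of which had 2 of 3 cytosines called DMCs. The Hs3st3a1 region lay 86.2 kb upstream, lost 39.2 points and had 5 of 6 DMCs, with none of its bases repeat-masked. Hs3st4 had 3 losses in intron 1, of -31.2, -30.1 and -28.8 points. Hs3st5 had 5 intergenic losses, 179.6 to 674.4 kb upstream, that ran from -31.8 to -23.1 points. In 4 of these 5 at least 80.0% of the bases were repeat-masked, and these 4 included its regions of 19 and 14 cytosines, at -24.0 and -23.1 points. The 4 regions listed under Hs3st2 ran from -23.6 to -21.8 points, 3 of them in intron 1. The 1 gain of the family was at Hs3st3b1, 20.2 points in intron 1, where 1 of 6 cytosines was a DMC.

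The enzymes of extracellular remodelling had 10 regions, of which 9 were losses and 1 was a gain, in a table where 85.1% of regions were losses. DMRs were 2 of the 10, beside 23.5% of the table, and they were a gain and a loss in paralogs. Sulf1 and Sulf2 encode endosulfatases that remove the 6-O-sulfate from finished heparan sulfate chains. Sulf1 was the listed gene of 5 losses, all within it on chromosome 1, of -32.8, -22.2, -25.2, -29.3 and -26.3 points, and the one of -29.3 points covered part of coding exon 14. Sulf2 on chromosome 2 had a gain of 41.7 points in intron 3 with 6 of 7 cytosines called DMCs. The same intron of Sulf2 held a loss at -22.4 points, and a further loss at -20.1 points lay 34.8 kb upstream. Hpse, which encodes heparanase, had 2 intergenic losses upstream, of -24.2 and -22.6 points, the second with 16 cytosines over 823 bp.

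At the start of synthesis, Xylt1 had more listed regions than any other member. Its product adds the xylose that starts the linkage sugars on the core protein. All 10 regions were losses, beside 85.1% of the table, and 2 of the 10 were DMRs, beside 23.5%. They were spread over 579 kb of chromosome 7 and ran from -32.8 to -20.04 points. The DMRs, -32.8 points in intron 5 and -32.7 points in intron 3, had all of their 4 and 3 cytosines called DMCs. A region of 19 cytosines in intron 3 lost 21.0 points. Xylt1 also held a loss of 21.9 points at 1353 bp downstream of the TSS, where 1 of 5 cytosines was a DMC (7:117382332-117382561). Ext2, a subunit of the heparan sulfate polymerase, had 1 region, a gain of 22.7 points in intron 7, and its partner Ext1 had none. Csgalnact1, which adds the first galactosamine of a chondroitin chain, had 1 loss at -23.7 points in intron 1. It was the sole gene with a region among the 6 of chondroitin polymerisation.

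The core proteins with a region, syndecans and glypicans, had 10 regions. Of these, 8 were losses and 2 were gains, in a table where 85.1% of regions were losses. DMRs were 2 of the 10, beside 23.5% of the table, so neither share was far from the background. Sdc1, the main syndecan of hepatocytes, gained 23.1 points in intron 1, 3.9 kb from its TSS, with 4 of 7 cytosines called DMCs. Sdc3 had 5 losses. Its DMR of -30.4 points was intergenic, 50.9 kb downstream of the TSS, while the other 4 lay in intron 1 between -24.5 and -21.2 points, including 1 with 19 cytosines. Sdc2 had 2 losses over 100 kb upstream, of -26.9 and -23.5 points. The glypican Gpc6 gained 35.6 points in intron 2, 447.6 kb into the gene, with 2 of 4 cytosines called DMCs, and Gpc5 lost 22.1 points in intron 1.

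The chondroitin and dermatan sulfotransferases had 13 regions in 5 genes. All 13 were losses, beside 85.1% of the table, and none was a DMR, beside 23.5%. They ran from -25.7 to -20.2 points, and 40 of their 107 cytosines were DMCs (37.4%). Chst11, a chondroitin 4-O-sulfotransferase, had 7 losses, 6 of them in introns 1 and 2, from -25.01 to -20.2 points. The region of Chst3, a chondroitin 6-O-sulfotransferase, that overlapped an island by sequence in its last exon had 37 cytosines, the most of any member. It lost 21.7 points with 11 DMCs. Chst12, another 4-O-sulfotransferase, lost 24.7 points in intron 1 over 14 cytosines and 25.7 points upstream.

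The other carbohydrate sulfotransferases act on keratan sulfate, on N-linked sugars or on the HNK-1 epitope, and are members by symbol. Of their 16 regions 15 were losses (93.8%, beside 85.1% of the table), and none reached 30 points, beside 23.5% of the table. Chst8, which sulfates the sugars of pituitary hormones, was the listed gene of 5 losses between -28.2 and -20.5 points, and the one of -23.4 points had 17 cytosines. Chst9, a near relative on chromosome 18, had 3, the largest -29.3 points in intron 3. Chst1, a keratan sulfate sulfotransferase, lost 23.2 points at 1365 bp upstream of its TSS (2:92598118-92598342), where 2 of 4 cytosines were DMCs, and lost 28.8 points at 142.3 kb downstream with 10 cytosines. Together with the region of Xylt1 near its TSS, it was 1 of the 2 members within 2000 bp of a TSS, the study's promoter window. That was 1.79% of members, beside 6.18% of the whole table, and neither was a DMR. Chst10, which sulfates the HNK-1 epitope, held a gain of 20.7 points in intron 5 and a loss of 20.6 points in exon 4, with 4229 bp between them. B3gat1 and B3gat2 make the glucuronic acid of the same epitope and had 7 losses, the largest -29.7 points at B3gat1. Has2, a hyaluronan synthase, had 3 intergenic losses on chromosome 15, 187.5 to 331.1 kb upstream. They were -21.8 points, -31.2 points with 10 cytosines, and -39.2 points with 4, and repeat masking covered 80.9% of the region with 10 cytosines and 72.4% of that with 4.

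**Figure D3:**
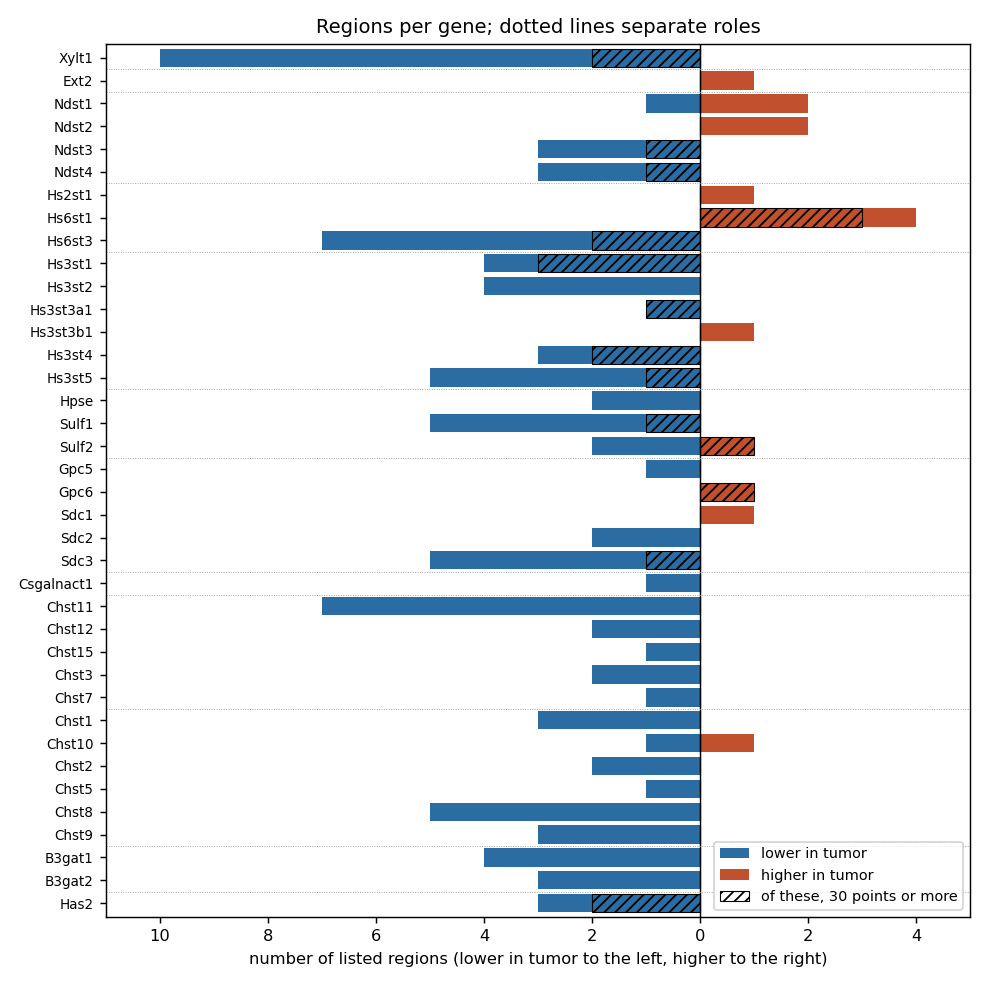
Bars give the number of listed regions of each of the 38 genes, lower in tumor to the left and higher to the right, with the hatched part reaching 30 points or more. Dotted lines separate the roles. Xylt1 has the longest bar, 10 losses, and Hs6st1 the longest to the right, 4 gains of which 3 are hatched.

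Of the 38 genes, 11 had 1 region, so direction within a gene could be compared for 27. Of these, 22 had losses alone, Hs6st1 and Ndst2 had gains alone, and Chst10, Ndst1 and Sulf2 had both, in a table where 85.1% of regions were losses. Members of 1 gene that lay within 10 kb of each other had the same direction in 13 of 16 adjacent pairs (81.2%). In the whole table this held for 92.0% of 1868 adjacent pairs within 10 kb, which were not limited to regions of 1 gene. The 3 exceptions were the pair of Chst10 and both pairs of Ndst1. Regions of a gene share its locus and cannot be counted as separate replicates.

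Members lay farther from the TSS and more often in introns than the other listed regions. Introns held 54.5% of the members and 33.2% of regions of all other genes, intergenic sequence 41.1% and 54.9%, and coding exons 4.46% and 9.56%. The median distance to the listed TSS was 75.4 kb for members and 47.5 kb for other genes. For the 15 gains it was 22.9 kb, for the 97 losses 94.3 kb, and 47 losses but 1 gain lay beyond 100 kb, the gain at Gpc6. Among regions of other genes the medians were 15.6 kb for gains and 58.5 kb for losses, and 4434 losses and 167 gains lay beyond 100 kb. None of the 15 gains was repeat-masked over at least 50% of its bases, while 23 of the 97 losses were, and 6 of the 17 losses of DMR size. Of the gains of other genes 5.42% were masked to that extent, and of their losses 31.2%. A CCGG site stood in or at the ends of 92.9% of members and 92.7% of other regions. The sequence CACGTG, an E-box that reads the same on both strands, was found in 5.36% of the members, beside 4.37% of the whole table. In 10 members (8.93%, beside 11.9% of the whole table) the cytosines came from 2 CpG dinucleotides. In 28 members (25%, beside 16.6%) just 1 cytosine was a DMC.

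**Figure D4:**
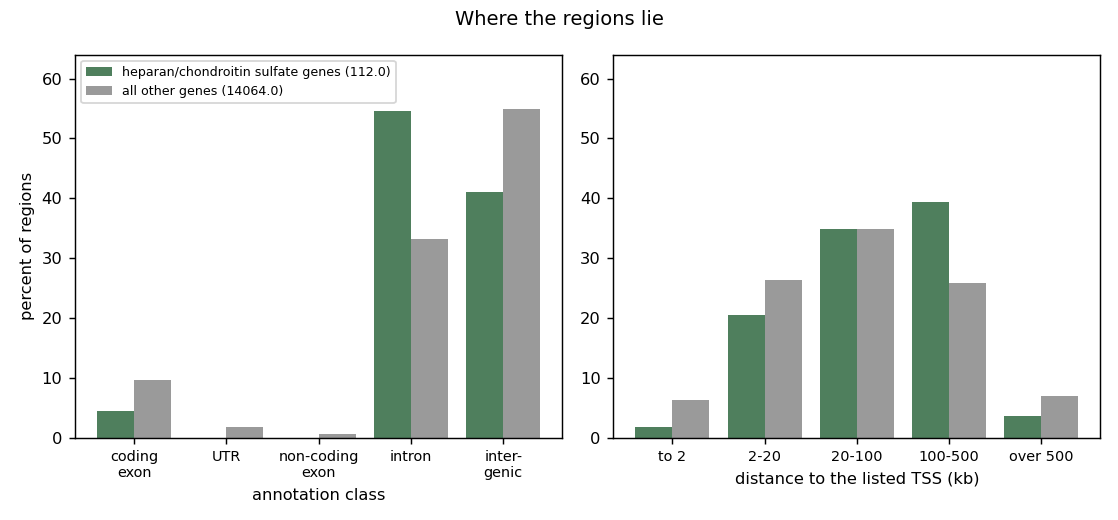
Bars give the percent of regions in each annotation class (left) and in each range of distance to the listed TSS in kb (right), for the 112 members in green and the 14064 regions of all other genes in grey. Members are more often intronic, 54.5% against 33.2%, and more often 100 to 500 kb from the TSS, 39.3% against 25.8%.

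The table names the gene with the nearest TSS, which is not always the gene that a region lies in. Of the 112 members, 61 lay within the gene they were listed under and 5 in another gene, among them both Ndst2 regions, a region of Chst2 in an intron of Slc9a9 and a region of Chst12 in an intron of Gm4869. Conversely, 31 regions lay inside 11 genes of these families but were listed under a neighbour, and all 31 were losses, with a median of -28.5 points. Hs6st3 held 7 of them, from -35.1 to -20.9 points, which brought the regions inside this gene to 14, all losses. Gpc5 held 6, the largest -40.9 points with 4 of 4 cytosines called DMCs. Hs3st3a1 held 3, the largest -40.7 points. Hs3st2 held 2 in an intron, at -31.4 points with 4 of 4 cytosines called DMCs and at -26.7 points. Chst8 held 2 in an intron, at -32.6 and -27.5 points, listed under Kctd15. Sulf1 held 2, at -29.5 points in a coding exon and -20.7 points in a UTR, listed under Slco5a1, which brought the losses inside this gene to 7. Introns of Chst15 held 2, at -29.3 and -24.9 points, and introns of Hs3st5 and Gpc6 held 1 each, at -24.8 and -22.0 points. Hspg2, which encodes the basement membrane proteoglycan perlecan and had no member region, held losses at -36.6 and -32.5 points in coding exons, listed under the microRNA gene Mir7018. The second had 13 of 14 cytosines called DMCs. Hpse2, a heparanase relative likewise without a member region, held 3 losses from -33.5 to -22.5 points. Over every region inside a gene of these families, 81 were losses and 11 were gains (88.0% losses), beside 76.9% of the 6411 regions that lay inside any gene. The 2 sets were not matched for distance from the TSS, and why these shares differ was not tested. Among all regions of other genes, gains made up 33.5% of those within 2 kb of the TSS and 4.22% of those at 100 to 500 kb.

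Genes of the same pathways that the symbols do not cover were listed apart, 50 genes in 4 lists, and 15 of them had 33 regions. Of these, 24 were losses and 9 gains (72.7% losses, beside 85.1% of the whole table). DMRs numbered 11 (33.3%, beside 23.5% of the whole table), 6 losses and 5 gains. Each of the 4 lists holds few regions, and the same shares of the whole table apply beside its counts. Enzymes that break the chains down had 1 loss and 3 gains. In this list Hyal2, a hyaluronidase, lost 46.5 points in a coding exon 1046 bp from its TSS, where 21 of 22 cytosines were DMCs. The Hyal2 region overlapped an island by sequence. Suppliers of precursors had 5 losses and 1 gain, and the gain was 45.8 points in an intron of Papss2, which makes the sulfate donor PAPS, with 6 of 6 cytosines called DMCs. Other synthesis enzymes had 9 losses and 2 gains. Extl1, an exostosin-like glycosyltransferase, gained 48.1 points over 521 bp at a coding exon 927 bp from its TSS, with 44 of 46 cytosines called DMCs. By the sequence rule used here the Extl1 region overlapped an island, whereas the paper states that its Extl1 DMR lies outside CpG islands. Losses of DMR size in this list were -31.4 and -30.4 points at Dsel, a dermatan sulfate epimerase relative, and -33.4 points at Pxylp1, a xylose phosphatase of the linkage region. Other core proteins had 9 losses and 3 gains. Tgfbr3, the betaglycan co-receptor, gained 50.9 points in an intron with 8 of 8 cytosines called DMCs, Col18a1 held a gain of 34.0 points and a loss of 33.2 points in introns, and Ptprz1 had a loss of 30.8 points.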

How the data were processed

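Per the study's methods, the authors trimmed reads with Trim Galore, aligned pairs to mm10 with Bismark, keeping unique best hits, and used methylKit to count C and T per CpG cytosine and strand. DMCs came from a logistic regression with limits on q-value, coverage and difference, regions from eDMR, and the nearest RefSeq TSS from bedtools 2.25.0 (submitters' processing notes). For the other tools no source used here gives a version. The deposited table gives 1 mean difference per region in percentage points, pooled over the samples of each group, with the numbers of CpG cytosines and DMCs. This difference is the authors' own comparison and was used because the table holds no other measurement. The depth behind a value is unknown apart from the minimum coverage of the authors, so its precision could not be measured.

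Starts were counted from 0, so 1 was added. Regions were placed against RefSeq transcripts of GRCm38 (mm10) in Python 3.11.15 with pysam 0.24.0, pandas 2.3.3 and samtools 1.23.1, and intervals were computed in SciPy 1.17.1. The listed TSS equalled an annotated start for 100 of the 112 members. CpG islands were found from sequence in 200 bp windows (GC content from 50%, observed to expected CpG from 0.6, merged length from 300 bp), with shores of 2000 bp. A region was assigned to an island if any part of it overlapped one. Repeat-masked bases are those in lower case in the reference. Placement was tested on simulated regions. Regions at 30 points or more were counted as DMRs. Named were all members at 30 points or more, with at least 10 CpG cytosines or within 2000 bp of a TSS, the genes with 3 or more regions, and the largest difference of each role, and outside the rule the pathway genes at 30 points or more, of which 1 is not reported here. Further members were named after their values were seen. Members, lists and named features were chosen with earlier results of these data known. Alternatives changed 1 choice at a time: the minimum difference, the minimum number of cytosines, distance, repeats, gene assignment and DMC share.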

Additional observations from a re-analysis of the deposited data

How the results depend on the processing

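No paired analysis was possible because the table holds no value per sample and the labels give the groups no shared replicate numbers, and leaving out replicates was not run for the same reason. Limits on the difference or on the DMC share set part of the shift by definition, and the cause of the other shifts below was not tested. Most limits leave fewer regions, while assignment by the gene that a region lies in used 138 in place of 112. With all regions, or those of at least 25 or 40 points, losses numbered 97, 38 and 3 in place of 17, and gains 15, 6 and 3 in place of 5. At these last 2 limits and at 30 points, the share of losses was 86.4%, 50% and 77.3% in place of 86.6%, and the median difference was -28.8, 0.725 and -32.2 points in place of -23.3, so its sign turned among the 6 members of at least 40 points. With at least 5 cytosines, DMR losses numbered 4 and gains 3, the DMR share was 12.1% in place of 19.6%, and 15 genes in place of 27 had 2 or more regions. With at least 10 cytosines, these values were 1, 1, 12.5% and 2. Within 100 kb of the TSS, 6 DMR losses and 17 such genes were left, with a loss share of 78.1% and a median of -22.0 points. Under 50% repeat-masking left 11 DMR losses. By the gene that a region lies in, 26 DMR losses were counted. Where all cytosines were DMCs, 6 losses, 1 gain and 2 such genes were left, with a DMR share of 87.5% and a median of -35.6 points. Each DMC must pass a minimum difference, so this limit keeps regions of larger differences by its definition.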
